A study of Homo sapiens with 12 samples.

Results

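Cholesterol and fatty acid synthesis genes were examined in the interleukin-6-dependent human myeloma line INA-6 after SB590885, an inhibitor of Raf kinases, PD325901, an inhibitor of MEK, or DMSO, the solvent control. The 37 genes were listed by symbol: 18 enzymes of sterol synthesis, 6 genes of sterol sensing and transport, 7 of fatty acid synthesis and 6 of the LXR and cholesterol export branch. Each was represented by the probe set paired with that symbol alone that had the highest mean over the 12 arrays, which gave 33 measured genes among 19775. They comprised 16 sterol enzymes, 6 sensing and transport genes, 6 fatty acid genes and 5 LXR and export genes. FDFT1, CYP51A1, FADS1 and NR1H2 were not analysed here, because no probe set was paired with that symbol alone. Of the 33, 32 had a mean above 6.92, the median of all probe sets on the log2 scale, and only ABCG1 (mean 6.84) did not.

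All groups were kept in RPMI1640 medium containing 10% serum from fetal calves, antibiotics and interleukin-6 at 2 ng/ml, and 300000 cells were treated. From each sample 100 ng of total RNA was amplified for 1 Affymetrix HG-U133 Plus 2.0 array, with 4 arrays for SB590885, 4 for PD325901 and 4 for DMSO. The arrays of a group are biological replicates according to the design text. A p-value here measures the spread between these arrays. All of them come from 1 cell line in serum, which itself carries cholesterol, and neither the doses nor the length of treatment are given in the sources used here.

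Animal cells make cholesterol from acetyl-CoA through mevalonate, isoprenoids, squalene and lanosterol. When sterols in the endoplasmic reticulum are scarce, the SREBP transcription factors (encoded by SREBF1 and SREBF2), held there with SCAP and INSIG proteins, move to the Golgi, are cut free and switch on most enzymes of this pathway, while SREBP-1 also drives fatty acid synthesis. When sterols are plentiful, oxidised sterols activate the LXR receptors, which induce the cholesterol exporters ABCA1 and ABCG1 and the ubiquitin ligase MYLIP. Raf activates MEK and MEK activates ERK, so both compounds act on 1 cascade.

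Binding sites of these factors lie in promoters. RefSeq promoters (GRCh38.p14, 250 bases before to 50 after the gene start) matched 29 of the 33 genes. The windows below were chosen because SREBF2 carried the only sterol regulatory element (SRE) found among them, HMGCS1 and SC5D show the more common NF-Y box, which recruits a factor that works with SREBP, and ABCA1 carried the only LXR element. Capitals mark these motifs and no GC box, and each sequence is written 5′ to 3′ on the strand of its gene: SREBF2 at chr22:41832932-41833043 (plus strand), HMGCS1 at chr5:43313468-43313607 (minus strand), SC5D at chr11:121292675-121292759 (plus strand) and ABCA1 at chr9:104928169-104928264 (minus strand).
SREBF2: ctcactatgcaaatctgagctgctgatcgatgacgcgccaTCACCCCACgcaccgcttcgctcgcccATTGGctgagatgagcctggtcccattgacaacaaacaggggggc
HMGCS1: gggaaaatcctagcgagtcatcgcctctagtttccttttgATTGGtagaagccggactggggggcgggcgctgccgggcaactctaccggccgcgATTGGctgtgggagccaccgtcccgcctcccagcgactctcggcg
SC5D: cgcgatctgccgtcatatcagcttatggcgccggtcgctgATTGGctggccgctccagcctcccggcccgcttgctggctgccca
ABCA1: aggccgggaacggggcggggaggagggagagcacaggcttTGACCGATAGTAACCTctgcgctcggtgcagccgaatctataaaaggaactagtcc

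Motifs were searched on both strands as exact letters, and none of the 4 motifs contains another. The NF-Y box was searched as CCAAT. It occurred in 15 of 20 promoters of the sterol enzymes, sensing and transport genes (75.0%) and in 3 of 9 of the fatty acid, LXR and export genes (33.3%), against 35.7% of 27303 promoters in RefSeq. The GC box GGGCGG occurred in 19 of 20 (95.0%) and 7 of 9 (77.8%), against 44.6% of all. The SRE TCACNCCAC occurred in 1 of 20 and 0 of 9, against 1.15% of all, and in SREBF2 it began at position -133 from the gene start. The LXR element was searched as AGGTNA followed after any 4 bases by the letters NGGTCA. It occurred in 0 of 20 and in 1 of 9, against 0.103% of all, and in ABCA1 it began at position -69 on the opposite strand. A match describes these letters in this window and is not evidence of binding, and SREBP also binds elements that these strict letters miss.

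The arrays had medians between 6.88 and 6.97. The labels number the arrays of a group 1 to 4, and a second label gives replicates 3 and 4 an R mark that the sources used here do not explain. Deviations from group means correlated at 0.544 to 0.913 between same-numbered arrays of different groups over 12 pairs, so arrays of 1 number are compared as pairs below. The main fit leaves this pairing out. A fit with the replicate number as a block, which uses the pairing, was run beside it. Across the R mark those correlations were -0.718 to -0.443. Deviations within a group balance out around its mean, so positive correlations within a mark bring negative ones across it. No opposite behaviour of the R-marked arrays is read from them. DUSP6, which ERK induces, fell by 0.97 with SB590885 (adjusted p = 0.00639) and fell by 2.64 with PD325901 (adjusted p = 4.6e-06), both against DMSO. All 10 plasma cell markers lay above 6.92. Their mean per array was 10.74 to 10.95 with SB590885, 11.07 to 11.54 with PD325901 and 10.99 to 11.39 with DMSO. SDC1 (mean 10.20 against 10.75), SLAMF7 (10.05 against 10.95) and XBP1 (12.18 against 12.80) were called lower with SB590885 than with DMSO. Of all genes 1.69% were called lower there. These calls were lost without any 1 of 8, 1 and 6 arrays. PRDM1 (10.61 against 10.53) and CD27 (7.01 against 6.95) had higher means with SB590885, and the remaining markers had lower ones. Of 6 macrophage markers, 1 lay above 6.92, as did 3 of 6 fibroblast, 2 of 5 adipocyte and 2 of 5 hepatocyte markers. Among these COL1A1 had a mean of 8.27 with DMSO, so a value above 6.92 does not by itself mark a cell type. Interferon response genes had medians of 11.2 on PD325901 replicate 2 and 11.6 on DMSO replicate 2, against 7.07 to 8.82 on the other 10 arrays. For GAPDH the 3′ control probe set exceeded the 5′ one, which reflects how intact the RNA was, by 0.440 ± 0.035 with SB590885, 0.425 ± 0.057 with PD325901 and 0.371 ± 0.033 with DMSO (SD, n = 4 each). This excess was above that of the same-numbered DMSO array in 4 of 4 SB590885 arrays and 3 of 4 PD325901 arrays. For ACTB the excess was 1.65 ± 0.17 with SB590885, 1.64 ± 0.10 with PD325901 and 1.58 ± 0.17 with DMSO. It was likewise above DMSO in 4 of 4 and 3 of 4 pairs. The part of RNA quality in the results was not tested.

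SB590885 was set against DMSO to ask how lipid synthesis genes respond when Raf is inhibited. Of the 16 sterol enzymes, IDI1 rose, none fell and 15 did not pass the test at an adjusted p under 0.05. Of the 6 sensing and transport genes, SREBF2 rose and 5 did not pass. Over all genes 3.28% passed in this comparison, 1.59% as higher, against 2 of these 22. Their median difference was 0.15 on the log2 scale, beside 0.0038 over all genes, and 20 of 22 differences were positive, beside 52.1% of all genes. With the replicate block 7 of 22 were higher (IDI1, LSS, MVK, SC5D, SQLE, SREBF1 and SREBF2) and none was lower, against 9.09% of all genes higher.

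**Figure D1:**
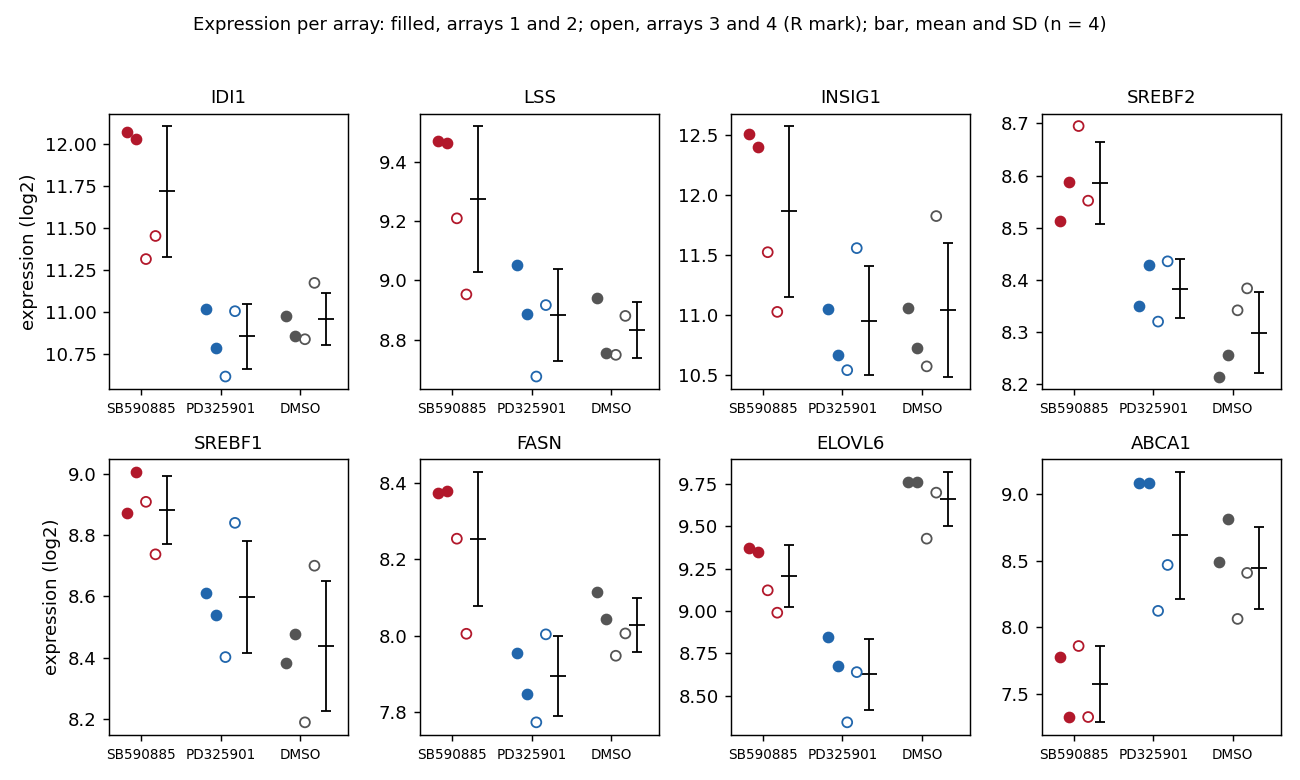
Log2 expression values (vertical axes) of 8 genes on each of the 12 arrays, by treatment (SB590885, PD325901, DMSO), 1 point per array, open for arrays with the R mark, with the mean and SD of each group as a bar. IDI1 with SB590885 lies at 11.32 or more on every array and at or below 11.17 elsewhere, and ELOVL6 with PD325901 lies at or below 8.85, against 9.43 or more with DMSO.

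IDI1, isopentenyl-diphosphate isomerase, interconverts the isoprenoid building blocks. Its log2 values were 12.07, 12.03, 11.32 and 11.45 with SB590885 (replicates 1 to 4), against 10.97, 10.85, 10.84 and 11.17 with DMSO. Every SB590885 array was above every DMSO array, and the groups lay furthest apart in the replicates without the R mark. The means were 11.72 ± 0.39 and 10.96 ± 0.155 (SD, n = 4 each), a difference of 0.76 (SE 0.17, 1.69-fold, limma adjusted p = 0.0321). With the replicate block the adjusted p was 4.12e-04. The call was lost without SB590885 replicate 1 (adjusted p = 0.0927), SB590885 replicate 2 (0.0998), or DMSO replicate 1 (0.0874), 2 (0.0899) or 3 (0.0866). It was also lost without the replicate 2 arrays (0.266) or the replicate 4 arrays (0.0594) of all groups, with the R-marked arrays alone (0.108), with median centring (0.0674) and with the arrays of the 2 groups alone (0.0557). Both bright probe sets of IDI1 gave like differences, 0.76 and 0.73, and the names of both end in a suffix that Affymetrix gives to probe sets able to match other transcripts. Its dimmer probe sets, with means of 7.79 and 7.11, differed by only 0.23 and 0.14. Of all its probe sets, only the dimmest lacks that suffix. In bulk RNA, fewer responding cells and a smaller change in each cell cannot be told apart.

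LSS, lanosterol synthase, closes squalene epoxide into the first sterol of the pathway. It had 9.47, 9.46, 9.21 and 8.95 with SB590885, against 8.94, 8.76, 8.75 and 8.88 with DMSO. The groups did not overlap, but SB590885 replicate 4 (8.95) stood barely above the highest DMSO array (8.94). The difference was 0.44 (SE 0.11, 1.36-fold), with an adjusted p of 0.0600 that became 0.00137 with the replicate block. Its other probe sets, with means of 6.93 and 6.86, differed by 0.11 and 0.06. IDI1, LSS, SREBF1 and SREBF2 were the 4 of 22 genes whose SB590885 arrays all lay above all DMSO arrays, where 4.45% of all genes did so.

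The next enzymes were picked out after their values were seen. SC5D, which introduces the C5 double bond of the sterol ring, had 9.42, 9.57, 9.03 and 8.88 with SB590885, against 8.94, 8.84, 8.79 and 8.77 with DMSO, so that SB590885 replicate 4 lay inside the DMSO range. Its difference was 0.39 (SE 0.13, adjusted p = 0.174, and 0.00264 with the block). SQLE, squalene epoxidase, a rate-controlling step, had 10.58, 10.58, 10.32 and 10.20, against 10.15, 9.95, 9.93 and 10.31. Here SB590885 replicate 4 was below its own DMSO array and the groups overlapped. The difference was 0.34 (adjusted p = 0.137, and 0.0139 with the block). The other SQLE probe sets, with means of 8.40, 7.33 and 6.93, differed by 0.13, 0.004 and 0.11. MVK, mevalonate kinase, was higher in 4 of 4 same-numbered pairs by a mean of 0.16 (adjusted p = 0.484, and 0.0280 with the block).

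HMGCS1, which makes HMG-CoA at the head of the pathway, and MSMO1, a sterol C4-methyl oxidase, had their highest values on the SB590885 arrays without the R mark. HMGCS1 had 10.38, 10.17, 9.66 and 9.44 with SB590885, against 9.55, 9.52, 9.61 and 9.84 with DMSO. MSMO1 had 11.46, 11.47, 10.61 and 10.55, against 10.81, 10.68, 10.73 and 11.16. In both genes SB590885 replicates 1 and 2 were above all DMSO arrays, and replicate 4 was below all of them. The mean differences of 0.28 and 0.18 did not pass (adjusted p = 0.617 and 0.893, and 0.216 and 0.567 with the block). The remaining enzymes, ACAT2, PMVK, MVD, FDPS, TM7SF2, NSDHL, HSD17B7, EBP and DHCR7, had differences from -0.02 (PMVK) to 0.15 (FDPS), and none passed with or without the block.

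SREBF2 encodes SREBP-2, the main activator of the sterol enzymes, and its promoter holds the SRE printed above. Its values were 8.51, 8.59, 8.69 and 8.55 with SB590885, against 8.22, 8.26, 8.34 and 8.38 with DMSO. The groups did not overlap. The same-numbered pairs differed by 0.30, 0.33, 0.35 and 0.17 for replicates 1 to 4, a mean of 0.26 with the R mark and 0.31 without. The 2 R-marked pairs were thus the largest and the smallest. The means were 8.59 ± 0.078 and 8.30 ± 0.077 (SD, n = 4 each), a difference of 0.29 (SE 0.055, 1.22-fold, limma adjusted p = 0.0179, and 9.47e-04 with the block). The call was lost without SB590885 replicate 2 (adjusted p = 0.0555), DMSO replicate 1 (0.0653) or DMSO replicate 2 (0.0561). It was also lost without the replicate 2 arrays (0.173) or the replicate 4 arrays (0.0509) of all groups, with the R-marked arrays alone (0.0726), with quantile normalisation (0.130) and with a trend in the moderation (0.0570). Its other probe sets differed by 0.21 and 0.16.

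SREBF1 encodes SREBP-1, which acts on fatty acid genes as well. It had 8.87, 9.01, 8.91 and 8.74 with SB590885, against 8.38, 8.48, 8.19 and 8.70 with DMSO. The groups did not overlap, with replicate 4 again the closest pair. The difference was 0.44 (SE 0.11, 1.36-fold), and its adjusted p was 0.0564, and 0.00214 with the block. Its other probe set, with a mean of 7.22, differed by -0.06.

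INSIG1, which retains SREBP in the endoplasmic reticulum and is itself an SREBP target, had the widest spread. It had 12.50, 12.39, 11.52 and 11.02 with SB590885, against 11.06, 10.72, 10.57 and 11.82 with DMSO, and these values were chosen for printing after they were seen. SB590885 replicates 1 and 2 were above every DMSO array, whereas DMSO replicate 4 exceeded SB590885 replicates 3 and 4. The mean difference of 0.82 (SE 0.36, 1.76-fold) did not pass (adjusted p = 0.342, and 0.0650 with the block). Its other probe sets gave 0.92 and 1.03. INSIG2 (0.15), SCAP (0.05), the escort protein of SREBP, and STARD4 (0.07), a carrier of cholesterol between membranes, did not pass either.

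**Figure D2:**
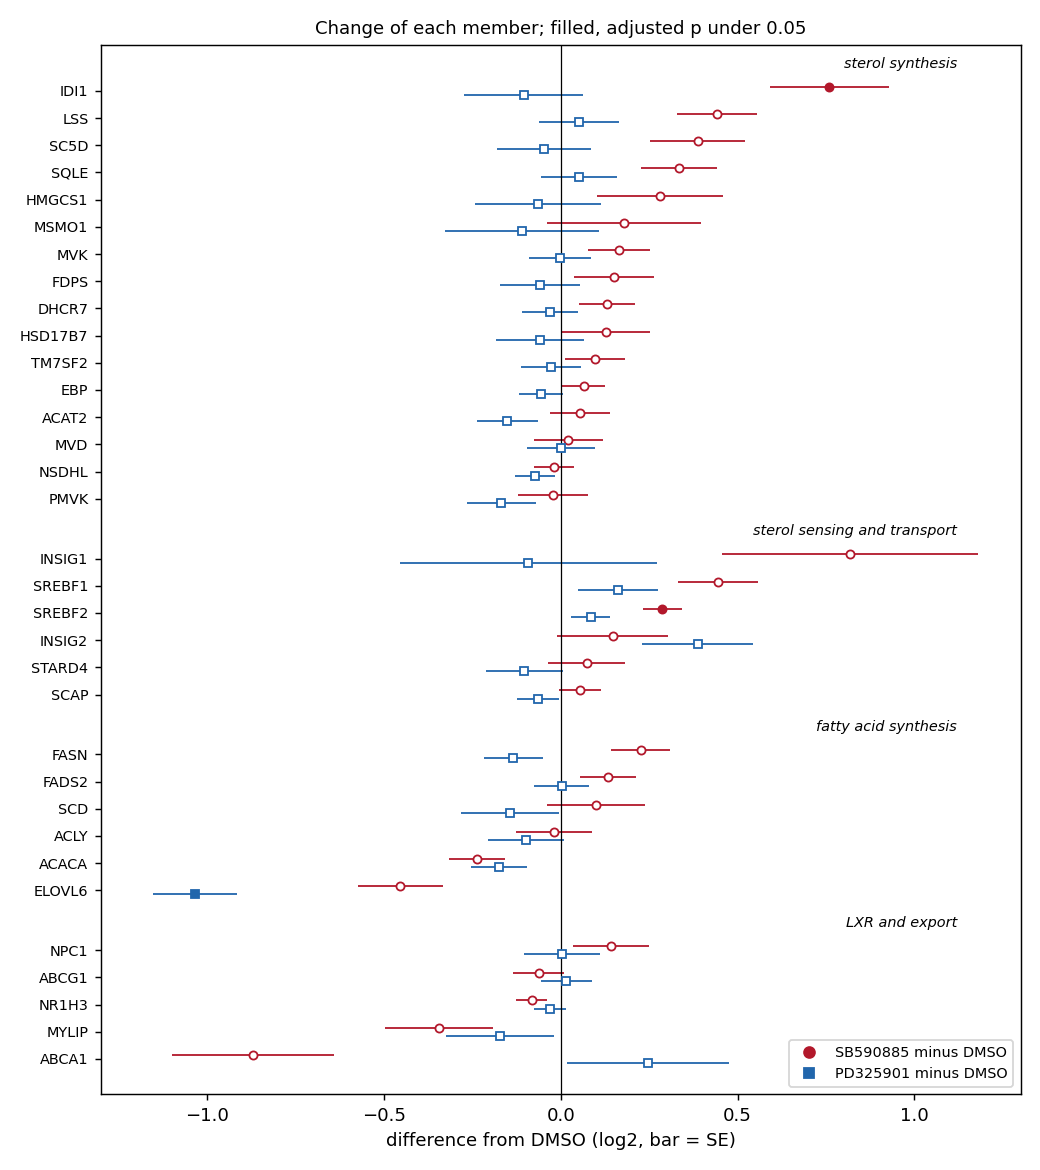
Difference in log2 expression (horizontal axes) between SB590885 and DMSO (circles) and between PD325901 and DMSO (squares) for each of the 33 measured genes, grouped by role, with bars of 1 SE on each side and filled points for an adjusted p under 0.05. INSIG1 and IDI1 lie furthest to the right for SB590885 against DMSO (0.82 and 0.76), and ELOVL6 furthest to the left for PD325901 against DMSO (-1.03).

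With SB590885 none of the 6 fatty acid genes passed the main limma test against DMSO, where 1.69% of all genes were called lower, and 3 had an unadjusted p under 0.05. Their median difference was 0.04. With the block FASN was higher and ACACA and ELOVL6 were lower, where 9.09% of all genes were called higher and 9.84% lower. ELOVL6, which lengthens saturated fatty acids made by FASN, had 9.37, 9.35, 9.12 and 8.99 with SB590885, against 9.76, 9.76, 9.43 and 9.70 with DMSO. Every SB590885 array was below every DMSO array, as for 5.76% of all genes. The difference was -0.45 (SE 0.12, 0.730-fold, adjusted p = 0.0645, and 2.09e-04 with the block). It was of like size without the R mark (-0.40) and with it (-0.51).

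FASN, fatty acid synthase, had 8.38, 8.38, 8.25 and 8.01 with SB590885, against 8.12, 8.04, 7.95 and 8.01 with DMSO, so that the groups overlapped through replicate 4. Its difference was 0.23 (SE 0.084, 1.17-fold, adjusted p = 0.218, and 0.0333 with the block), and its other probe set gave 0.05. ACACA, acetyl-CoA carboxylase, which supplies FASN with malonyl-CoA, differed by -0.24 (adjusted p = 0.158, and 0.0244 with the block). The 3 other genes lay between -0.02 (ACLY, which makes cytosolic acetyl-CoA) and 0.13 (FADS2, a desaturase). The third was SCD, the stearoyl-CoA desaturase, at 0.10 by its brightest probe set and at 0.22, 0.65 and 0.57 by its others, so that the size of its difference depended on the probe set.

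Among the LXR and export genes none of 5 passed, 2 had an unadjusted p under 0.05, and the median difference was -0.08. ABCA1, which loads cholesterol onto lipoproteins and whose promoter holds the LXR element above, had 7.78, 7.33, 7.86 and 7.33 with SB590885, against 8.49, 8.81, 8.06 and 8.41 with DMSO. All SB590885 arrays were below all DMSO arrays. The difference was -0.87 (SE 0.23, 0.547-fold, adjusted p = 0.0645, and 0.00207 with the block), with -1.10 without the R mark and -0.64 with it. A second probe set gave -0.88. The 2 dimmest probe sets of ABCA1 had means under 6.92 and differed by 0.04 and -0.01.

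MYLIP, the LXR target that marks lipoprotein receptors for breakdown, differed by -0.34 (adjusted p = 0.342, and 0.0451 with the block). The difference was -0.65 without the R mark and -0.04 with it. NPC1, which releases cholesterol from lysosomes, was higher in 4 of 4 pairs by a mean of 0.14 (adjusted p = 0.725, and 0.0301 with the block). NR1H3, which encodes LXR-alpha, differed by -0.08 and the dim ABCG1 by -0.06, and neither passed with or without the block.

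The differences were next taken apart by the R mark. For SB590885 against DMSO the median difference of the 22 sterol enzymes, sensing and transport genes was 0.27 without the mark and 0.04 with it, and 21 of the 22 differences were larger without it. In fits of 1 set alone, which had 2 arrays a group, 11 of 22 were higher without the mark, where 6.52% of all genes were, and 0 of 22 passed with it, where 2.16% were higher and 6 of 22 had an unadjusted p under 0.05. INSIG1 differed by 1.56 without the mark (adjusted p = 0.00127) and by 0.08 with it (adjusted p = 0.954). HMGCS1 differed by 0.74 (adjusted p = 0.00254) and by -0.18, and MSMO1 by 0.72 (adjusted p = 0.00492) and by -0.36, without and with the mark. IDI1 stayed positive in both sets, at 1.14 and 0.38. For PD325901 against DMSO, which shares the DMSO arrays, the medians of the 22 were 0.02 without the mark and -0.11 with it. There 20 of 22 differences were larger without the mark. For SB590885 against PD325901 the medians were 0.25 and 0.16, with 16 of 22 larger without the mark.

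The difference between the sets was itself tested as an interaction of treatment and mark, a test chosen after the data were seen. For SB590885 against DMSO it called 0 of 33 genes (limma, lowest adjusted p = 0.221, for HMGCS1) and 1 of all genes (0.00506%). Of the 33, 10 had an unadjusted p under 0.05, a count without the share of all genes beside it. For PD325901 against DMSO and for SB590885 against PD325901 it also called 0 of 33, with 0 and 1 of all genes. By same-numbered pair of SB590885 and DMSO the median of the 22 genes was 0.30, 0.29, 0.12 and -0.07 for replicates 1 to 4. Medians of all genes ran from -0.0039 to 0.0077. Of the 22, 19, 21, 16 and 10 were positive, beside 10365, 10089, 9657 and 10271 of all 19775 genes. Pair 4 was the 1 pair with a negative median. What the mark stands for was not tested.

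**Figure D3:**
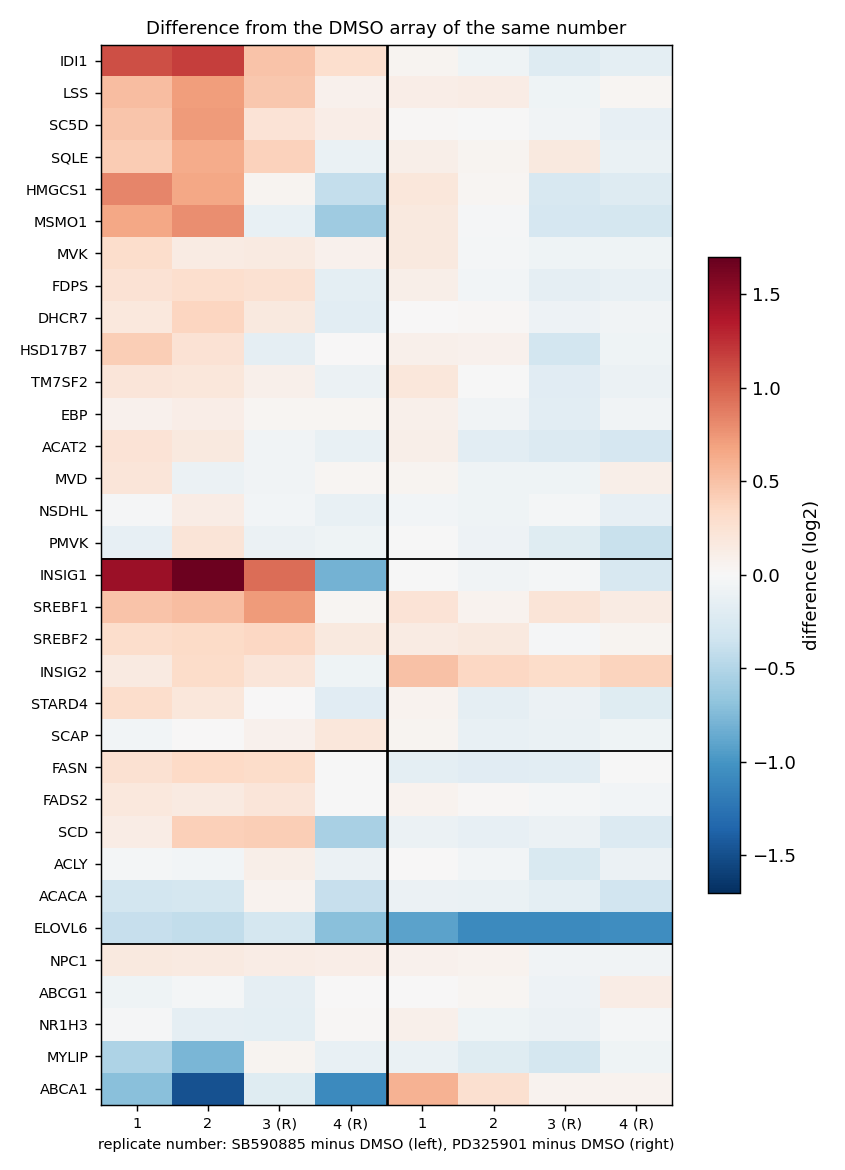
Difference in log2 expression between each SB590885 or PD325901 array and the DMSO array of the same number as colour, with 1 row per measured gene, grouped by role, and 1 column per replicate (SB590885 left, PD325901 right). The medians of the 22 sterol enzymes, sensing and transport genes for SB590885 are 0.30, 0.29, 0.12 and -0.07.

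**Figure D4:**
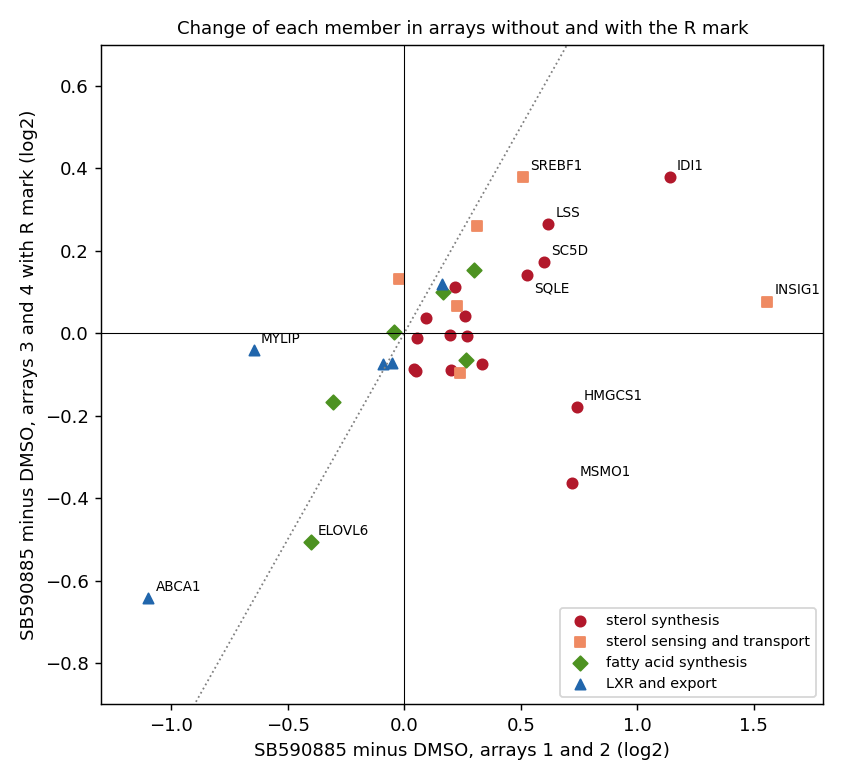
Difference in log2 expression between SB590885 and DMSO on arrays without the R mark (horizontal axis) and on arrays with it (vertical axis), 1 point per measured gene, with a line of equality. INSIG1 (1.56 and 0.08) and HMGCS1 (0.74 and -0.18) lie far below the line, and SREBF2 (0.31 and 0.26) lies near it.

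PD325901 was set against DMSO to ask the same question one step further down the cascade. None of the 22 sterol enzymes, sensing and transport genes passed in limma, where 0.592% of all genes did, and 1 had an unadjusted p under 0.05. Their median difference was -0.06, beside -0.0029 over all genes, with 6 of 22 positive, beside 48.5% of all genes. Quantile normalisation turned the median to 0.02 with 15 positive, beside 54.2% of all genes, so no direction is given for them. IDI1 had 11.02, 10.78, 10.61 and 11.00 with PD325901, inside or below the DMSO range (difference -0.10, SE 0.17, adjusted p = 0.986). INSIG1 had 11.05, 10.66, 10.54 and 11.55, below its same-numbered DMSO array in 4 of 4 pairs (mean difference -0.09, SE 0.36, adjusted p = 0.996).

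INSIG2, the paralog of INSIG1, was the gene with the unadjusted p under 0.05. It had 9.77, 9.74, 9.28 and 9.43 with PD325901, against 9.26, 9.38, 8.97 and 9.06 with DMSO. It was higher in 4 of 4 pairs although the groups overlapped. The difference was 0.39 (SE 0.16, 1.31-fold, adjusted p = 0.615), and with the replicate block it passed (adjusted p = 0.00155), the 1 of 22 to do so where 1.96% of all genes were called higher. These values were chosen for printing after they were seen.

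ELOVL6 fell with PD325901, the 1 of the 11 fatty acid, LXR and export genes to pass, where 0.506% of all genes were called lower. It had 8.85, 8.67, 8.34 and 8.64 with PD325901, against 9.76, 9.76, 9.43 and 9.70 with DMSO. The highest PD325901 array (8.85) lay well below the lowest DMSO array (9.43), and 2.68% of all genes had all PD325901 arrays below all DMSO arrays. The means were 8.63 ± 0.21 and 9.66 ± 0.16 (SD, n = 4 each), a difference of -1.03 (SE 0.12, 0.488-fold, limma adjusted p = 0.00185, and 3e-07 with the block). The difference was -1.0 without the R mark and -1.07 with it, the call held without each of the 12 arrays in turn (highest adjusted p = 0.00936), and the other probe sets gave -0.83 and -0.40. FASN (-0.13), SCD (-0.14) and ACACA (-0.17) did not pass (adjusted p = 0.934, 0.985 and 0.727). ABCA1 had 9.08, 9.09, 8.12 and 8.47, above its DMSO array in 4 of 4 pairs, with a difference of 0.25 that did not pass (SE 0.23, adjusted p = 0.982).

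SB590885 was then set directly against PD325901, as applied at doses that are not given. This comparison and the others share arrays, so the values are given side by side and no likeness between comparisons is read from them. IDI1 was higher with SB590885 by 0.86 (SE 0.17, 1.82-fold, adjusted p = 0.0187), the 1 of 22 sterol enzymes, sensing and transport genes to pass, where 2.82% of all genes passed. The call was lost without SB590885 replicate 1 (adjusted p = 0.0534), SB590885 replicate 2 (0.0626) or PD325901 replicate 3 (0.0547), without the replicate 2 arrays of all groups (0.164) and with the arrays of the 2 groups alone (0.0722). The median of the 22 was 0.19, beside 0.00046 over all genes, and 21 of 22 were positive, beside 50.2% of all genes.

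With the block 9 of these 22 were higher (IDI1, LSS, MVK, SC5D, SQLE, ACAT2, INSIG1, SREBF1 and SREBF2) and INSIG2 was lower, where 12.4% of all genes were higher and 5.73% lower. SREBF2 had 8.35, 8.43, 8.32 and 8.44 with PD325901, all under its SB590885 arrays, and differed by 0.20 (SE 0.055, adjusted p = 0.0827, and 0.0101 with the block). For the fatty acid, LXR and export genes, 3 of 11 passed. ELOVL6 was higher with SB590885 by 0.58 (SE 0.12, 1.5-fold, adjusted p = 0.0237), and ABCA1 was lower by a log2 difference of -1.12 (SE 0.23, 0.461-fold, adjusted p = 0.0237). Over all genes 1.97% were called higher and 0.855% lower. In ELOVL6 and ABCA1 the arrays of the groups did not overlap, as for 4.68% of all genes on the higher side and 2.5% on the lower.

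FASN had 7.95, 7.85, 7.77 and 8.0 with PD325901, all under its SB590885 arrays, the closest being replicate 4 of each at 8.01 and 8.0, and was higher with SB590885 by 0.36 (SE 0.084, 1.28-fold, adjusted p = 0.0429). Its call was lost without any 1 of 11 arrays (up to an adjusted p of 0.139) and held only without SB590885 replicate 4. The ELOVL6 call was lost without SB590885 replicate 1 (adjusted p = 0.0819), SB590885 replicate 2 (0.0823), PD325901 replicate 3 (0.0547) or PD325901 replicate 4 (0.0570). The ABCA1 call was lost without SB590885 replicate 2 (adjusted p = 0.0817), SB590885 replicate 4 (0.0591), PD325901 replicate 1 (0.0577) or PD325901 replicate 2 (0.0626). All 3 calls were lost without the replicate 2 arrays of all groups (adjusted p = 0.172 for ELOVL6, 0.160 for ABCA1 and 0.328 for FASN), with median centring (0.0682, 0.0520 and 0.107) and with the arrays of the 2 groups alone (0.0688, 0.0678 and 0.133). Without the replicate 4 arrays of all groups the calls of ELOVL6 (0.0794) and ABCA1 (0.133) were lost. FASN also lost its call with the R-marked arrays alone (0.156), with the mean of its probe sets (0.0740) and with a trend in the moderation (0.0571). With the block all 3 passed (adjusted p = 2.44e-05 for ELOVL6, 3.17e-04 for ABCA1 and 0.00189 for FASN).

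A further list of 42 lipid genes outside the 37 covered SREBP processing, sterol transport, fatty acid elongation and activation and carbohydrate-sensing factors, and 38 were measured. For SB590885 against DMSO, 2 of 38 fell and none rose in the main fit, where 1.69% of all genes fell and 1.59% rose, and the median difference of the 38 was 0.01. With the block 8 of 38 were higher and 9 lower, where 9.09% of all genes were higher and 9.84% lower. MLX, the partner of the glucose-sensing MLXIP and MLXIPL proteins, fell by 0.36 (SE 0.062, adjusted p = 0.0107). ACSL5, which activates long-chain fatty acids, fell by 0.60 (SE 0.12, adjusted p = 0.0193), a call lost without SB590885 replicate 1 or 2 or DMSO replicate 1 or 2 (up to an adjusted p of 0.0666). For PD325901 against DMSO 0 of 38 passed in the main limma fit, where 0.592% of all genes did, with 5 of the 38 at an unadjusted p under 0.05. With the block 2 were higher and 4 lower, where 1.96% of all genes were higher and 6.18% lower. Against PD325901, MLX alone of the 38 passed in the main fit, where 0.855% of all genes were called lower and 1.97% higher. MLX was lower with SB590885 by a log2 difference of -0.32 (adjusted p = 0.0182), a call lost without SB590885 replicate 1 or 2 or PD325901 replicate 2 (up to an adjusted p of 0.0663). With the block 11 of 38 were higher with SB590885 and 4 lower, where 12.4% of all genes were higher and 5.73% lower.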

How the data were processed

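Expression was measured on 12 Affymetrix HG-U133 Plus 2.0 arrays, 4 each for SB590885, PD325901 and DMSO. The deposited values are on a log2 scale, 1 per probe set and array. The authors used RMA in R 3.0.1 to make them, per the submitters' processing notes. Whether all arrays were normalised in 1 run was not stated there. The number of arrays limits the precision. Of 54675 probe sets, 62 controls were left out, and 41091 had 1 gene symbol in the annotation, 1801 several and 11721 none. Each of 19775 genes took its brightest probe set of the first kind.

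Comparisons used limma 3.58.1 (R 4.3.3): group means over all 12 arrays, empirical Bayes without trend and Benjamini-Hochberg adjustment over 19775 genes per comparison. Adjusted p-values come from this fit unless the replicate block or a subset is named. Counts at an unadjusted p under 0.05 are given without the share of all genes at that threshold, and nothing about the lists is read from them. The main fit was also run on simulated data for SB590885 against DMSO, with arrays drawn independently. That run does not bear on the fit with the block or on arrays that deviate together. The labels' array numbers were taken to pair arrays because same-numbered arrays deviated together (correlations 0.544 to 0.913) and each of 12 arrays correlated best with a same-numbered array (12 of 12). Only the fit with the block uses this pairing. The main fit and the fits with arrays left out do not.

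Values on every array were given for the 33 genes by a rule: passing in a comparison, or groups that did not overlap and passing with the block. Values of other genes among them, such as HMGCS1, MSMO1, SC5D, SQLE, INSIG1 and INSIG2, were added after they were seen. Of the further lipid genes, those that passed were named with their differences. The genes and lists were chosen with earlier results of these data known. Alternatives were the replicate block, the R mark as a term or as subsets, other scalings, probe set and low-value rules, and arrays left out. The interaction and the fit without the replicate 4 arrays were added after seeing the data. Motifs were searched in RefSeq promoters (GRCh38.p14) with Python 3.11.15.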

Additional observations from a re-analysis of the deposited data

How the results depend on the processing

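The number of genes that passed depended on the handling of the array numbers and the R mark, and no tried setting reversed a called difference. The 29 differences of single genes counted here were those that passed in the main fit or with the replicate block. The 7 that passed in the main fit kept the call in 112 of 168 alternatives and lost it in 56. The 22 that did not pass there stayed so in 448 of 528 and gained a call in 80. The block is among these alternatives, and each of the 22 was included for passing with it, so that part of the gains was fixed by the choice. For SB590885 against DMSO, 2 of 22 sterol enzymes, sensing and transport genes passed. This was 7 with the replicate block, 7 with an R mark term, 11 without R-marked arrays, 0 with R-marked arrays alone, 0 without the replicate 2 arrays, 3 without the replicate 4 arrays (LSS, SREBF1 and INSIG1, neither IDI1 nor SREBF2), 1 with median centring, 4 with low genes left out, 1 with a trend in the moderation and 1 with the 8 arrays of the groups compared. Leaving out 1 array gave 0 to 3, with 0 without SB590885 replicate 2, DMSO replicate 1 or DMSO replicate 2. The corresponding 0 of 11 fatty acid, LXR and export genes became 6 with the block, 4 with an R mark term, 5 without and 2 with R-marked arrays alone, 2 with the mean of all probe sets, 2 with quantile normalisation, 1 with low genes left out, 1 with the 2 groups alone and 0 to 2 with 1 array left out. For PD325901 against DMSO, the 0 of 22 became 1 (with the block, the R term, R-marked arrays alone or quantile normalisation), and leaving out 1 array kept 0, while ELOVL6 alone passed among the 11 in all settings. For SB590885 against PD325901, 1 of 22 became 10 with the block, 6 with the R term, 11 without and 2 with R-marked arrays alone, 0 without replicate 2, 2 without replicate 4, 4 with quantile normalisation, 0 with the 2 groups alone and 0 to 3 with 1 array left out. The 3 of 11 became 5 without R-marked arrays, 0 without replicate 2, 1 without replicate 4, 0 with median centring, 0 with the 2 groups alone and 0 to 2 with 1 array left out. The cause of these changes was not tested, except that fewer arrays and genes enter some settings. Dim probe sets, such as that of ABCG1, limit what can be seen of small changes.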

Other observations

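Single arrays stood at the edge of their own group across many of the 22 sterol enzymes, sensing and transport genes. SB590885 replicate 4 was the lowest of its 4 arrays for 12 of 22 genes (54.5%), against 23.3% of all genes. PD325901 replicate 1 was the highest of its group for 15 of 22 (68.2%), against 29.7% of all genes, and PD325901 replicate 3 was the lowest for 14 of 22 (63.6%), against 30.4%. DMSO replicate 4 was the highest of its group for 12 of 22 (54.5%), against 25.8% of all genes, and INSIG1 had its largest DMSO value, 11.82, on that array. These shares were chosen after the values were seen and have no test.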
